A study of Mus musculus with 6 samples.

Results

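The 9 genes described here encode the hypoxia-inducible factors (HIFs) and the proteins that tie them to oxygen. They are the prolyl hydroxylases Egln1, Egln2 and Egln3, the asparaginyl hydroxylase Hif1an, the ubiquitin ligase subunit Vhl, the alpha subunits Hif1a and Epas1, the beta subunit Arnt and the antagonist Cited2. They were taken by gene name from tables of 49585 genes, each name matched 1 row, and 9 of 9 passed the filter on low counts. RNA was sequenced from mGB2, a mouse glioblastoma line that its labels call glioblastoma stem cells, in 3 untreated Bcat1-KO libraries and 3 untreated control libraries. All 6 were grown attached to matrix-coated plates, in stem cell medium with N2, B27, EGF and FGF supplements, and were harvested at confluency. The labels say neither how the knockout was made, nor whether it is 1 clone, nor whether replicates were separate cultures, and p-values here cover only the spread among these 6 samples, which may be technical. Oxygen levels in culture are not given in the sources used here.

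In oxygenated cells the EGLN enzymes hydroxylate prolines of the HIF alpha subunits, using molecular oxygen, iron and 2-oxoglutarate. VHL recognises the hydroxylated subunit and marks it for destruction by the proteasome. HIF1AN hydroxylates an asparagine instead, which keeps the alpha subunit from binding the coactivators CREBBP and EP300. When oxygen is short, the alpha subunit accumulates, pairs with ARNT and switches on genes of glycolysis, pH control and blood vessel growth, and in glioblastoma this response is best known around necrotic tissue. BCAT1 uses 2-oxoglutarate as the acceptor of the amino group of branched-chain amino acids, so it shares a substrate with the hydroxylases. Much of the control of the alpha subunits acts on the protein, which RNA counts do not show.

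The libraries held 29543157 to 37800648 counts on the strand of the genes. Bcat1 itself had 155, 176 and 173 CPM (counts of a gene relative to the library total, scaled between libraries by the TMM method) in Bcat1-KO, against 214, 223 and 232 CPM in control, so the targeted transcript was lower but still present. Of the 6 stem cell markers checked, Nes, Sox2, Olig2, Msi1 and Sox9 were at or above 17.5 CPM in every library, whereas Prom1 was at 0 in control and at most 0.853 CPM in Bcat1-KO. Their summed level was 1229.6 to 1444 CPM in Bcat1-KO and 816 to 842 CPM in control. At an adjusted p under 0.05, 4 of the 6 (Sox2, Olig2, Sox9 and Prom1) were higher and 0 lower. These 66.7% stand beside 62.3% of all genes tested that passed, 32.0% higher and 30.3% lower. The summed level of 6 endothelial markers was at most 0.780 CPM in Bcat1-KO and 1.05 CPM in control, and that of 6 microglial markers, with C1qa at 0 in all libraries, at most 0.111 CPM in Bcat1-KO and 0.172 CPM in control. In multidimensional scaling the first dimension, with 93.5% of the variance of distances, separated the groups. The second, with 2.19%, set Bcat1-KO replicate 1 (0.72) away from replicates 2 and 3 (-0.36 and -0.35).

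Of the 9 genes, 4 rose in Bcat1-KO (Vhl, Egln1, Egln3 and Hif1a), 2 fell (Arnt and Epas1) and 3 did not pass the test (Egln2, Hif1an and Cited2). Genes were tested by quasi-likelihood in edgeR, with p-values adjusted by Benjamini-Hochberg over 14020 genes and a threshold of 0.05. The 6 that passed are 66.7% of the members, in a comparison in which 62.3% of all tested genes passed, 32.0% higher and 30.3% lower. Passing the test is therefore near the background of this comparison, and the sizes and directions carry the description. The median absolute log2 fold change of the 9 genes was 0.43, against 0.38 over all genes tested. For 7 members the Bcat1-KO and control libraries did not overlap, where 67.7% of all tested genes showed no overlap (35.1% with Bcat1-KO above and 32.5% with Bcat1-KO below). With Bcat1-KO replicate 1 left out, 4 members were higher and 2 lower, while over all genes 4589 were higher and 4741 lower of 14218 tested. With the median change of the 51 genes around each gene removed, 2 were higher (Egln1 and Vhl) and 2 lower (Arnt and Epas1), while over all genes 3929 were higher and 3870 lower of 14020 tested.

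**Figure D1:**
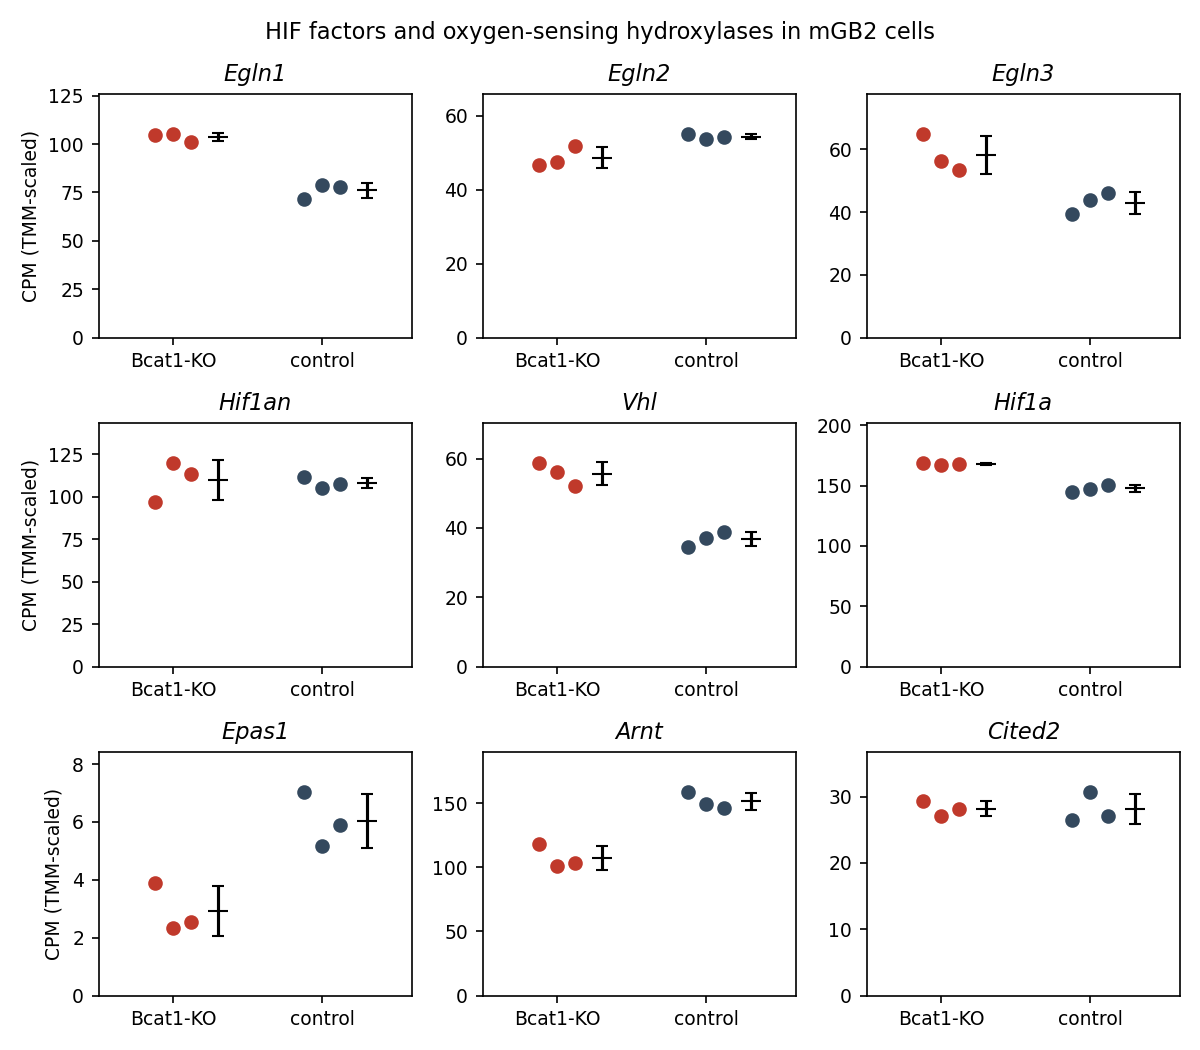
TMM-scaled CPM of each of the 9 genes by library, with Bcat1-KO (red) left of control (dark grey), and the mean with its SD beside each group (n = 3 each). Every axis starts at 0. Egln1, Egln3, Vhl and Hif1a lie higher in all 3 Bcat1-KO libraries, Arnt, Epas1 and Egln2 lie lower in all 3, and Hif1an and Cited2 overlap.

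Egln1 encodes PHD2, the main oxygen sensor for HIF-1 alpha (ENSMUSG00000031987.6, protein coding, chromosome 8 from 124908587 to 124949324, minus strand, mm10). It had 105, 105 and 101 CPM in Bcat1-KO, against 71.8, 78.7 and 77.6 CPM in control. The lowest knockout library was well above the highest control library. The mean was 104 ± 2.25 CPM in Bcat1-KO and 76.0 ± 3.69 CPM in control (SD, n = 3 each). On the log2 scale Egln1 changed by 0.45 (SE 0.06, edgeR adjusted p = 7.15e-05), an increase of 36.3% with a 95% interval of 23.9% to 49.9%. Its chromosomal neighbours went the other way. Of the 50 nearest tested genes, 32 were lower and 5 higher, with a median log2 fold change of -0.43, and with the local median removed Egln1 had a log2 fold change of 0.87 (edgeR adjusted p = 2.52e-07).

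Egln3 encodes PHD3, whose transcript is itself a well-known HIF target (ENSMUSG00000035105.5, protein coding, chromosome 12 from 54178981 to 54203860, minus strand). It had 64.8, 56.3 and 53.3 CPM in Bcat1-KO, against 39.2, 43.7 and 46.1 CPM in control. The groups did not overlap, and Bcat1-KO replicate 1 was the highest library. Egln3 rose by 0.43 on the log2 scale (SE 0.09, edgeR adjusted p = 0.00109), and by 0.33 without Bcat1-KO replicate 1 (edgeR adjusted p = 0.000986). Of its neighbours 25 of 50 were higher and 7 lower, and with the local median removed the change of Egln3 was 0.20 and did not pass (edgeR adjusted p = 0.0707).

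Egln2 encodes PHD1, a largely nuclear member of the family (ENSMUSG00000058709.11, protein coding, chromosome 7 from 27158658 to 27166802, minus strand). It had 46.6, 47.4 and 51.9 CPM in Bcat1-KO, against 55.0, 53.7 and 54.3 CPM in control. The values did not overlap, but the difference did not pass the test (log2 fold change -0.16, SE 0.07, edgeR adjusted p = 0.0549), with a 95% interval from -19.0% to -0.945%. It passed with RLE scaling (adjusted p = 0.0390), with upper-quartile scaling (adjusted p = 0.0360) and without Bcat1-KO replicate 3 (adjusted p = 0.0204), and the adjusted p ran between 0.0204 and 1 across 15 alternatives. With the local median removed its log2 fold change turned to 0.08 (edgeR adjusted p = 0.357).

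A promoter window of each of the 3 Egln genes is shown because the HIF heterodimer binds a short core, which was searched as ACGTG and as GCGTG on both strands. The windows run from 250 bases before to 50 bases after a start site, come from RefSeq in build GRCm38.p6 and are written 5′ to 3′ on the strand of the gene, with the matches in capitals.
Egln1, chr8:124949205-124949504, minus strand: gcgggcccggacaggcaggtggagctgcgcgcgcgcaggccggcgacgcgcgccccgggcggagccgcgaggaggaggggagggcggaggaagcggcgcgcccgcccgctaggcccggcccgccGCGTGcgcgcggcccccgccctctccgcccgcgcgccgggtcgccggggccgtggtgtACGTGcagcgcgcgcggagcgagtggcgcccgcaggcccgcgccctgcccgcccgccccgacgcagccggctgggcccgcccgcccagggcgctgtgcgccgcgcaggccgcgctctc
Egln2, chr7:27166753-27167052, minus strand: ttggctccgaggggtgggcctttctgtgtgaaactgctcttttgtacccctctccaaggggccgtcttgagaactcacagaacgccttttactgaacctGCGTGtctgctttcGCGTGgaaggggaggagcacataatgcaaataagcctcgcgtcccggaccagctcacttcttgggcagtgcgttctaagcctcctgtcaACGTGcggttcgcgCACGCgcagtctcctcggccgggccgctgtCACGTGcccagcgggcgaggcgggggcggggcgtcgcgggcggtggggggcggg
Egln3, chr12:54203825-54204124, minus strand: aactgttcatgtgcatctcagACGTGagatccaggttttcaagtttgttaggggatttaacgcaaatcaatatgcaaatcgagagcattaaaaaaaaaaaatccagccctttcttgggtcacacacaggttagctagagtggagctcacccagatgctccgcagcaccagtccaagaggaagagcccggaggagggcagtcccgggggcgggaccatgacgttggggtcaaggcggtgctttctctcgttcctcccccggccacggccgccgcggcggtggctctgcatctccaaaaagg
Counted from the first transcribed base as 0, Egln1 held an ACGTG at -68 and a GCGTG at -126, and Egln3 held an ACGTG at -229. The Egln2 window shown held 6 matches that cover 26 bases, since the CACGTG at -4 reads as ACGTG on both strands. Egln2 had another window, chr7:27165679-27165978, with 1 match, a GCGTG at -116. In all, 8 of the 9 members had RefSeq windows, all but Epas1. Of their 9 windows 7 held a match, as did 43.8% of 32851 windows of all genes. Both cores contain CG, and the G and C content of the members' windows ran from 49.3% to 86%. The windows of all genes were not matched for this content, so the comparison cannot show an enrichment. ACGTG was present in 19.6% of all windows and GCGTG in 32.4%. The windows of Vhl and Hif1an held none. A match describes the letters and does not show binding.

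Per exonic length, the prolyl hydroxylases differed in their proportions as well as in their sum. Their summed level in the authors' TPM values (reverse-strand reads per exonic length, scaled to the same total in every library) was 225, 223 and 219.98 TPM in Bcat1-KO, against 173, 179.7 and 185 TPM in control. Egln1 made up 42.4% ± 0.957 of that sum in Bcat1-KO and 37.3% ± 0.706 in control (SD, n = 3 each). Egln2 made up 25.6% ± 2.06 in Bcat1-KO and 34.2% ± 1.63 in control, and Egln3 32.0% ± 2.39 in Bcat1-KO and 28.5% ± 1.30 in control. No share overlapped between the groups, and each gave p = 0.1 in a two-sided exact permutation test over the 6 libraries, which is the smallest p that 3 against 3 can give. The 3 shares add up to the whole in every library, so they are not separate results. In CPM, 67.7% of all genes tested showed no overlap between the groups. The Egln3 share was closest to overlapping, with 30.0% in the lowest knockout library and 29.7% in the highest control library. Without Bcat1-KO replicate 1 the Egln3 difference was 2.27 percentage points, against 3.59 with all libraries.

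**Figure D2:**
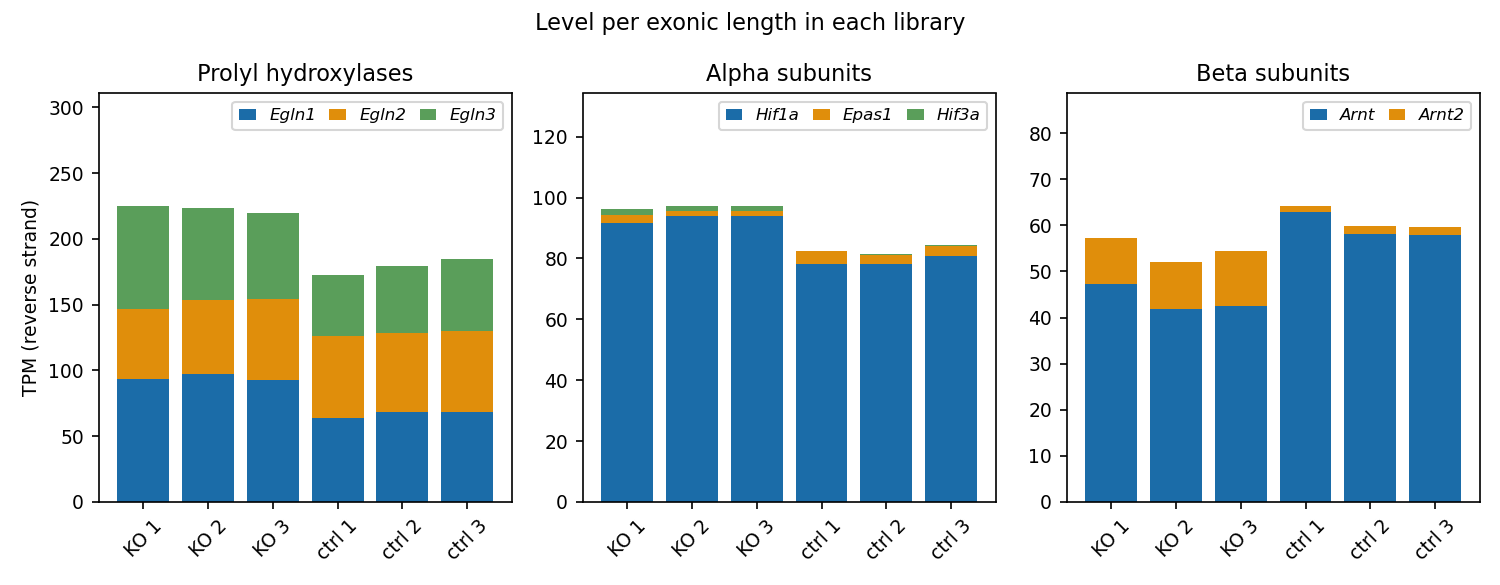
Stacked TPM per library for the prolyl hydroxylases, the alpha subunits and the beta subunits, with the 3 Bcat1-KO libraries left of the 3 control libraries. Egln1 and Egln3 are taller in Bcat1-KO while Egln2 is not, Hif1a makes up nearly all of the alpha subunits in both groups, and Arnt2 makes up 19.7% of the beta subunit sum in Bcat1-KO and 2.64% in control.

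Hif1an encodes FIH, the asparaginyl hydroxylase (ENSMUSG00000036450.4, protein coding, chromosome 19 from 44562850 to 44576274, plus strand). It had 96.7, 119.7 and 113 CPM in Bcat1-KO, against 112, 105 and 107 CPM in control. The knockout libraries spanned the control libraries, with Bcat1-KO replicate 1 the lowest of all. The estimate on the log2 scale was 0.02 (SE 0.08, edgeR adjusted p = 0.812), with a 95% interval from -9.96% to 14.7%, which is the range of change these libraries leave.

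Vhl encodes the substrate-binding subunit of the ligase (ENSMUSG00000033933.13, protein coding, chromosome 6 from 113623959 to 113631633, plus strand). It had 58.7, 56.0 and 52.1 CPM in Bcat1-KO, against 34.6, 37.2 and 38.8 CPM in control. This was the largest increase among the 9 genes, except with the local median removed, where that of Egln1 was larger, and the groups did not overlap. Vhl rose by 0.59 on the log2 scale (SE 0.07, edgeR adjusted p = 2.61e-05), an increase of 50.8% with a 95% interval of 34.9% to 68.6%. With the local median removed it was 0.37 (edgeR adjusted p = 0.00115). A larger absolute change was found for 33.7% of all genes tested, so the size is not unusual in this comparison. Other subunits of the same ligase also rose: Cul2, its scaffold, Rbx1, its RING subunit, and elongin C, listed as Tceb1, with log2 fold changes of 0.32, 0.26 and 0.22 (adjusted p = 0.00268, 0.00618 and 0.0140, edgeR). The local medians were 0.34 around Cul2, 0.16 around Rbx1 and 0.04 around Tceb1, so Cul2 rose no more than its region. Elongin B, listed as Tceb2, had 138, 143 and 167 CPM in Bcat1-KO, against 149, 167 and 170.1 CPM in control, and did not pass (edgeR adjusted p = 0.255). These 4 genes were singled out after their values were seen. The rises of Cul2, Rbx1 and Tceb1 were each smaller than the median absolute log2 fold change over all genes tested, 0.38. Of all genes tested, 32.0% were higher.

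Hif1a encodes the alpha subunit that is widely expressed (ENSMUSG00000021109.13, protein coding, chromosome 12 from 73901375 to 73947530, plus strand). It had 169, 167 and 168 CPM in Bcat1-KO, against 145, 148 and 150.2 CPM in control. The knockout libraries were all above the control libraries and agreed closely with each other. Hif1a rose by 0.18 on the log2 scale (SE 0.06, edgeR adjusted p = 0.0165), an increase of 13.7% with a 95% interval of 3.99% to 24.2%. It did not pass without a filter on low counts (adjusted p = 0.0616) or without any 1 of the control libraries (adjusted p = 0.0600, 0.0746 and 0.0605 for replicates 1, 2 and 3). Its neighbours on chromosome 12 were higher in 29 of 50 cases and lower in 5, with a median log2 fold change of 0.34, and with the local median removed the value of Hif1a turned to -0.15 (edgeR adjusted p = 0.0518). The predicted gene Gm15283 lies on the opposite strand within the locus and held 0 to 3 counts in any library. Counting without regard to strand gave Hif1a 88.2% to 88.7% of its stranded count across the 6 libraries.

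Epas1 encodes HIF-2 alpha, which is best known in endothelial cells and in glioma stem cells (ENSMUSG00000024140.9, protein coding, chromosome 17 from 86753907 to 86833410, plus strand). It was scarce, with 141, 90 and 92 counts in Bcat1-KO, against 221, 172 and 171 counts in control. Scaled, these are 3.91, 2.34 and 2.53 CPM in Bcat1-KO, against 7.03, 5.18 and 5.89 CPM in control. Every knockout library was below every control library, and replicate 1 was the highest of its group in both. The change of Epas1 on the log2 scale was -1.04 (SE 0.20, edgeR adjusted p = 0.000807), a decrease with a 95% interval from -64.4% to -34.1%, and it was -1.33 without Bcat1-KO replicate 1. Among the 9 genes it was the one that passed a test against a 1.5-fold threshold (edgeR adjusted p = 0.0274). Its neighbours did not share the change: 22 of 50 were higher and 9 lower, and 1 of 50 had a lower value than Epas1.

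Markers of other cell types were checked beside Epas1. The summed level of 6 endothelial markers was 0.305 to 0.780 CPM in Bcat1-KO and 0.826 to 1.05 CPM in control, with Cldn5 at 0 in all libraries and Cdh5 at most at 1 count in any. The summed level of 6 fibroblast and mural cell markers was 4.48 to 6.07 CPM in Bcat1-KO and 24.5 to 26.5 CPM in control. Col1a1, Pdgfrb and Acta2 fell. Col1a2, Dcn and Lum were too low to be tested, and of these Dcn lay the other way, with 17, 18 and 10 counts in Bcat1-KO, against 3, 2 and 2 counts in control. The part of these markers in the Epas1 difference was not tested, and in bulk RNA fewer cells of a type and less RNA per cell cannot be told apart.

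Epas1 was a small part of the alpha subunit RNA in either group. Its share of the summed TPM of Hif1a and Epas1 was 2.51%, 1.53% and 1.65% in Bcat1-KO, against 5.10%, 3.75% and 4.17% in control. The groups did not overlap (exact permutation test, two-sided, p = 0.1, the smallest possible). Another alpha subunit, Hif3a, whose splice forms include inhibitors of the other HIFs, was near the limit of detection in control and present in the knockout. It had 4.599, 3.51 and 3.44 CPM in Bcat1-KO, against 0.191, 0.211 and 0.241 CPM in control. On the log2 scale this is a rise of 4.15 (SE 0.26, edgeR adjusted p = 6.11e-08), on 426 counts in Bcat1-KO and 20 counts in control. Hif3a then made up 1.94% ± 0.301 of the TPM of the 3 alpha subunits in Bcat1-KO and 0.122% ± 0.0127 in control (SD, n = 3 each). It was named after its value was seen.

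Arnt encodes HIF-1 beta, the partner of all alpha subunits and of the aryl hydrocarbon receptor (ENSMUSG00000015522.18, protein coding, chromosome 3 from 95434388 to 95497240, plus strand). It had 118, 101 and 103 CPM in Bcat1-KO, against 158, 149 and 146 CPM in control. All knockout libraries were below all control libraries, and Bcat1-KO replicate 1 was the nearest to the control. The change of Arnt on the log2 scale was -0.49 (SE 0.07, edgeR adjusted p = 0.000119), with a 95% interval from -36.6% to -20.6%. Its neighbours were lower in 25 of 50 cases and higher in 7, and with the local median removed the value was -0.24 (edgeR adjusted p = 0.0163). The predicted gene Gm42672 lies within Arnt on the same strand and held 20 to 32 counts in Bcat1-KO and 24 to 42 in control. The paralog Arnt2, a neural partner of PAS proteins such as SIM1 and NPAS4, went the other way. Arnt2 had 23.9, 23.9 and 27.9 CPM in Bcat1-KO, against 3.18, 4.40 and 4.20 CPM in control, which is 2.68 higher on the log2 scale (SE 0.13, edgeR adjusted p = 7.63e-09). The summed TPM of Arnt and Arnt2 was 57.3, 52.1 and 54.5 TPM in Bcat1-KO, against 64.2, 59.9 and 59.6 TPM in control.

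Cited2 encodes a protein that competes with HIF-1 alpha for CREBBP and EP300 and is induced by hypoxia (ENSMUSG00000039910.9, protein coding, chromosome 10 from 17723228 to 17725673, plus strand). It had 29.3, 27.1 and 28.1 CPM in Bcat1-KO, against 26.5, 30.7 and 27.2 CPM in control. The groups overlapped, and the log2 fold change was 0.00 (SE 0.08, edgeR adjusted p = 0.981), with a 95% interval from -11.4% to 13.2%. Of the coactivators, looked up after the values were seen, Ep300 fell (log2 fold change -0.38, edgeR adjusted p = 0.00263), and Crebbp had 38.8, 39.9 and 45.9 CPM in Bcat1-KO, against 48.1, 40.6 and 48.9 CPM in control (edgeR adjusted p = 0.192).

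**Figure D3:**
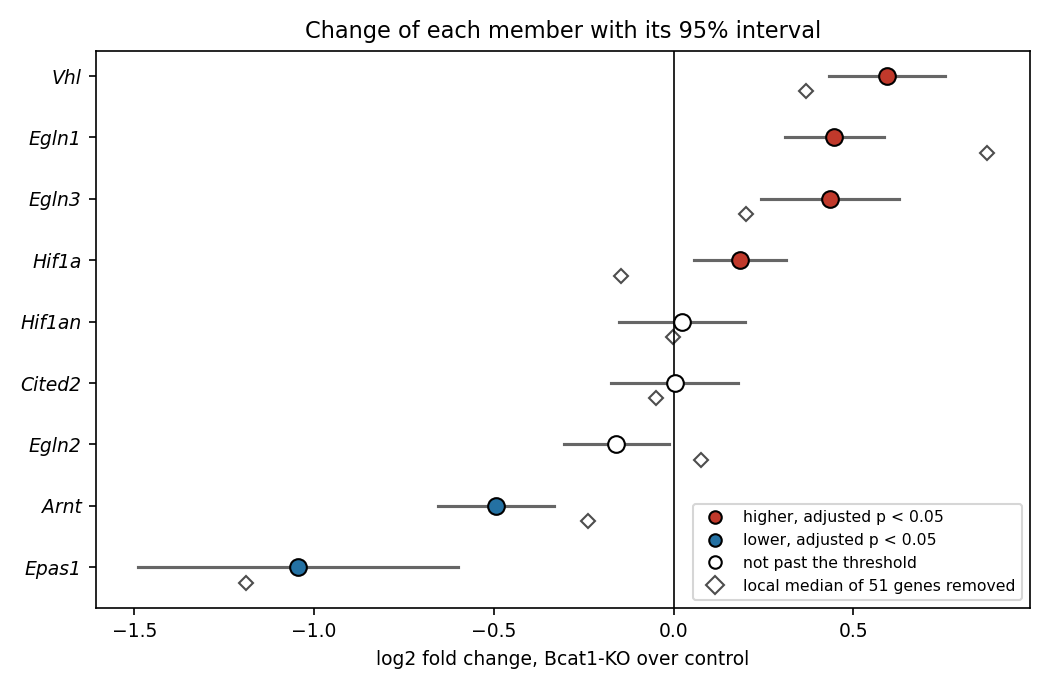
Log2 fold change of each member, Bcat1-KO over control, with its 95% interval (circles) and the value after the median change of the 51 genes around it was removed (diamonds). Vhl, Egln1, Egln3 and Hif1a lie to the right of 0 and Arnt and Epas1 to the left, and the diamond of Hif1a lies on the other side of 0 at -0.15.

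Levels per exonic length put the members in an order that differed in part between the 2 groups. In Bcat1-KO, Egln1 and Hif1a led with 94.4 ± 2.30 and 93.2 ± 1.28 TPM (SD, n = 3 each), and their libraries overlapped. Egln3 followed with 71.4 ± 6.09 TPM, apart from both neighbours in the order. Vhl (60.7 TPM), Egln2 (56.9 TPM), Hif1an (54.5 TPM), Cited2 (46.9 TPM) and Arnt (43.9 TPM) came next, each overlapping the next in its libraries. In control, Hif1a led with 79.0 ± 1.40 TPM, apart from Egln1 with 66.8 ± 2.80 TPM, and Egln2 (61.2 TPM) and Arnt (59.6 TPM) overlapped. Hif1an (51.6 TPM), Egln3 (50.98 TPM) and Cited2 (45.1 TPM) formed an overlapping run, and Vhl stood apart below them with 38.8 ± 2.12 TPM. Epas1 was last in both, with 1.80 ± 0.490 TPM in Bcat1-KO and 3.59 ± 0.583 TPM in control. Vhl thus ranked 4 of 9 in Bcat1-KO and 8 of 9 in control, and Arnt ranked 8 of 9 in Bcat1-KO and 4 of 9 in control.

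The neighbourhoods of the members differed in their typical change. The median of the 50 neighbours was 0.20 for Vhl, 0.22 for Egln3, 0.34 for Hif1a, 0.18 for Epas1, 0.05 for Hif1an and 0.06 for Cited2. It was -0.43 for Egln1, -0.24 for Egln2 and -0.24 for Arnt. Egln1 and Epas1 differed in sign from their neighbourhoods, whereas Vhl, Egln3, Hif1a and Arnt had the same sign as theirs. The part of these regional values in the members' differences was not tested.

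**Figure D4:**
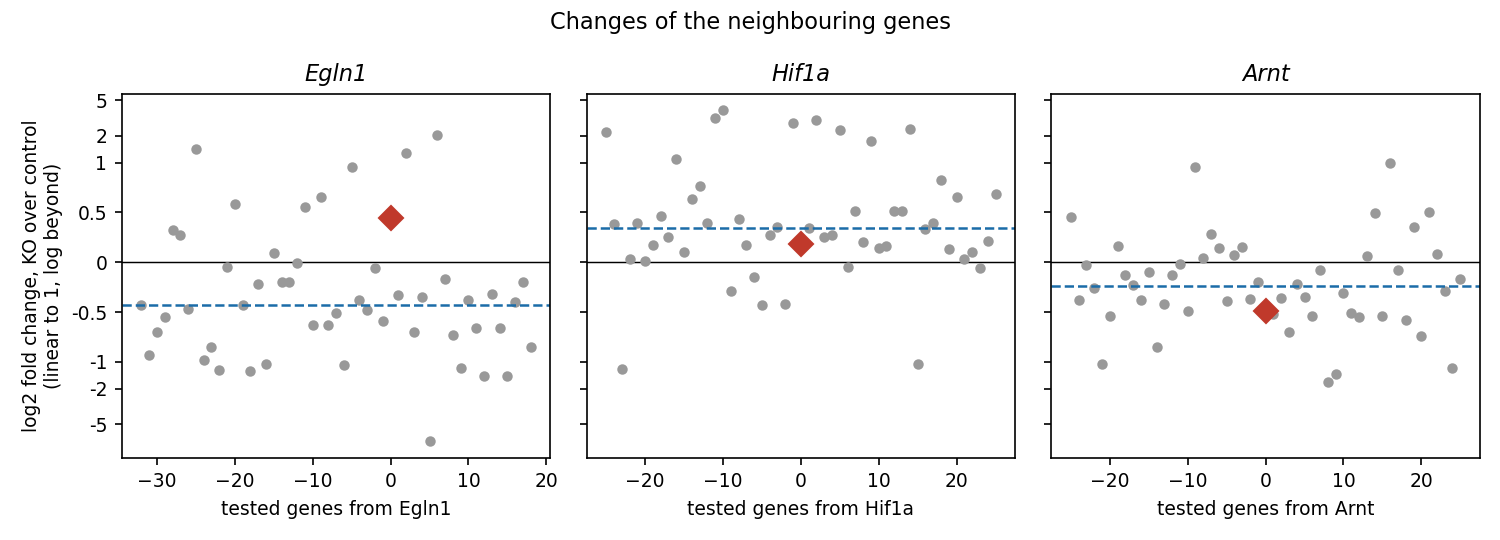
Log2 fold change, Bcat1-KO over control, of the 50 nearest tested genes (grey points) around Egln1, Hif1a and Arnt (red diamonds), by gene order along the chromosome, on an axis that is linear to 1 and logarithmic beyond. Dashed lines mark the neighbours' medians of -0.43, 0.34 and -0.24, and Egln1 alone of the 3 lies on the other side of 0 from its line.

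The list of other HIF pathway regulators held 20 genes, of which Cited4 had 0 counts in all libraries and was not tested. Of 19 tested, 8 were higher, 7 lower and 4 did not pass, which is 42.1% higher and 36.8% lower, against 32.0% and 30.3% over all genes tested. They had a median log2 fold change of -0.07, against 0.01 over all genes tested. The list took in the ligase subunits, the paralogs and the coactivators given above. P4htm, a transmembrane prolyl hydroxylase of the endoplasmic reticulum that can act on HIF alpha, had 2.96, 3.53 and 2.78 CPM in Bcat1-KO, against 6.36, 5.75 and 6.92 CPM in control (log2 fold change -1.03, SE 0.15, edgeR adjusted p = 8.62e-05). Os9, a lectin of the endoplasmic reticulum that has been reported to bind EGLN1 and EGLN3, fell by 0.68 on the log2 scale (SE 0.08, edgeR adjusted p = 1.25e-05). The 2 Siah ligases, which can mark EGLN3 for degradation, moved in opposite directions: Siah1a had a log2 fold change of -0.47 (edgeR adjusted p = 0.000178) and Siah2, added after its value was seen, of 0.43 (edgeR adjusted p = 0.000419). The local medians were -0.42 around Siah1a, -0.06 around Siah2, -0.48 around Os9 and 0.23 around P4htm.

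Genes described as HIF targets did not move as a group. Of 48 listed, 43 were tested, and 16 were higher, 15 lower and 12 did not pass, which is 72.1% called, against 62.3% over all genes tested. Their median log2 fold change was 0.07, against 0.01 over all genes tested. Not tested were Lox and Slc16a3, with 0 counts on the strand of the gene in all libraries, Angptl4, Pfkfb4 and Epo. At Slc16a3 the opposite strand held 38, 53 and 59 counts in Bcat1-KO, against 21, 26 and 12 counts in control, and counting without regard to strand left 44 targets to test. Among targets with a mean log2 CPM of 2 or more, the 3 that fell most serve pH control and collagen. Car12, a membrane carbonic anhydrase, had 0.139, 0.156 and 0.138 CPM in Bcat1-KO, against 34.5, 34.05 and 34.5 CPM in control (log2 fold change -7.86, SE 0.15, edgeR adjusted p = 5.49e-12). Its Bcat1-KO values rest on 5, 6 and 5 counts, near the limit of detection. Car9, the carbonic anhydrase used as a hypoxia marker in tumours, had 1.27, 1.53 and 1.07 CPM in Bcat1-KO, against 21.4, 26.1 and 21.9 CPM in control (log2 fold change -4.15, SE 0.15, edgeR adjusted p = 5.53e-10). P4ha2, a collagen prolyl hydroxylase that also uses 2-oxoglutarate, had 5.98, 7.28 and 4.79 CPM in Bcat1-KO, against 23.6, 23.9 and 23.3 CPM in control (log2 fold change -1.97, SE 0.13, edgeR adjusted p = 1.32e-07). In these 3 genes every knockout library was far below every control library, and the control libraries varied more for Car9 than for Car12 and P4ha2. Adm, the vasodilator peptide adrenomedullin, was named after its value was seen, with 0.194, 0.130 and 0.110 CPM in Bcat1-KO and 2.45, 2.77 and 3.17 CPM in control (log2 fold change -4.24, edgeR adjusted p = 1.07e-07).

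Aldoc, the brain form of aldolase, had the largest rise of the targets, with 432, 428 and 459 CPM in Bcat1-KO, against 147, 179.9 and 173 CPM in control (log2 fold change 1.40, SE 0.08, edgeR adjusted p = 4.32e-08). Divided after the values were seen, the 18 tested genes of glucose uptake and glycolysis had 10 higher and 2 lower (Pfkl and Pfkfb3), with a median log2 fold change of 0.24. The 66.7% of them that passed are near the 62.3% over all genes tested. The 25 other tested targets had 6 higher and 13 lower, with a median of -0.44, and 76.0% passed. The shares higher and lower were 55.6% and 11.1% for glucose uptake and glycolysis and 24% and 52% for the others. Over all genes tested they were 32.0% and 30.3%. Vegfa, the main angiogenic target, had 417, 649 and 532 CPM in Bcat1-KO, against 677, 618 and 608 CPM in control, and did not pass (log2 fold change -0.25, SE 0.13, edgeR adjusted p = 0.110). Bcat1-KO replicate 1 was its lowest library. Ldha and Pdk1, also chosen after the values were seen, send pyruvate away from the mitochondria and did not pass either (log2 fold changes 0.07 and 0.07, adjusted p = 0.532 and 0.511, edgeR). Glycolytic genes such as Gapdh, Aldoa and Ldha have many processed copies in the genome, between which counting can divide reads, so their values are less certain. With Bcat1-KO replicate 1 left out, 15 targets were higher and 17 lower, while over all genes 4589 were higher and 4741 lower of 14218 tested.

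**Figure D5:**
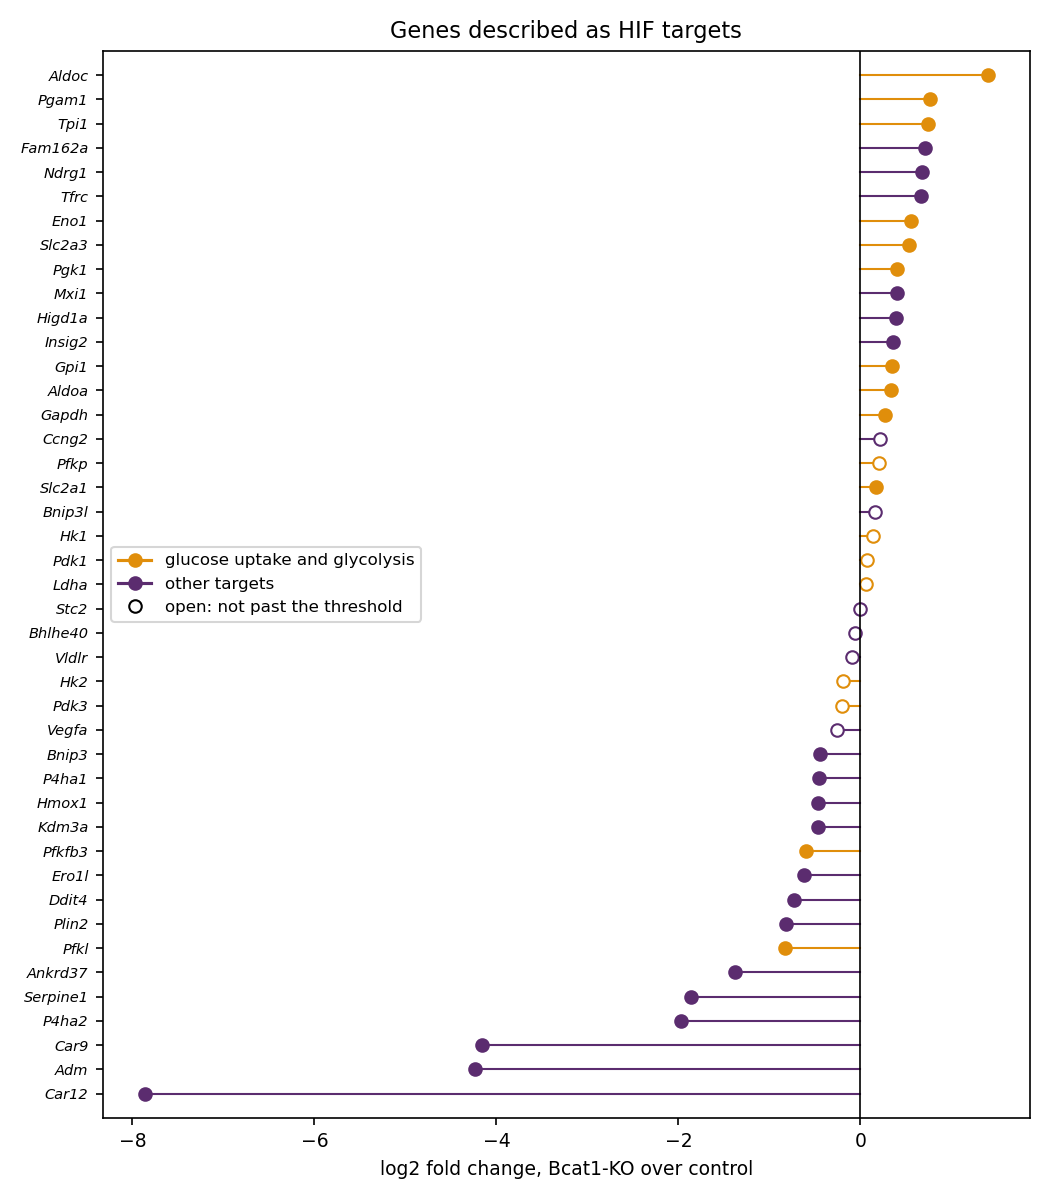
Log2 fold change, Bcat1-KO over control, of the 43 tested genes described as HIF targets, in order of size, with filled points past the adjusted p threshold of 0.05 and open points not past it. Orange marks glucose uptake and glycolysis and purple the other targets, and the range runs from 1.40 for Aldoc to -7.86 for Car12.

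The hydroxylases depend on 2-oxoglutarate and release succinate, and succinate and fumarate can compete with 2-oxoglutarate for them. Of 21 genes that make or use these 3 metabolites, 15 were higher, 3 lower (Bcat1, Bcat2 and Glud1) and 3 did not pass, with a median log2 fold change of 0.44, against 0.01 over all genes tested. All 21 were tested, and 85.7% passed, against 62.3% over all genes tested. The shares higher and lower were 71.4% and 14.3%, against 32.0% and 30.3% over all genes tested. Bcat1 is the targeted gene, and whether its lower RNA comes from the knockout itself was not tested. Idh3a, the catalytic subunit of the mitochondrial enzyme that makes 2-oxoglutarate from isocitrate, had 209, 207 and 208 CPM in Bcat1-KO, against 86.6, 93.5 and 92.8 CPM in control. Fh1, which removes fumarate, had 232, 183 and 180.3 CPM in Bcat1-KO, against 108, 116 and 116 CPM in control (log2 fold change 0.81, SE 0.09, edgeR adjusted p = 1.64e-05), and Bcat1-KO replicate 1 was the highest. Sdhd, a membrane anchor of succinate dehydrogenase, had 159, 139 and 141 CPM in Bcat1-KO, against 80.4, 90.2 and 88.4 CPM in control (log2 fold change 0.76, SE 0.08, edgeR adjusted p = 3.97e-06). The other 3 subunits, Sdha, Sdhb and Sdhc, named after their values were seen, rose as well, by log2 fold changes of 0.39, 0.44 and 0.71. Bcat2 fell, with 54.9, 54.2 and 49.99 CPM in Bcat1-KO, against 135, 126 and 121 CPM in control. Levels of the metabolites were not measured here.

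Genes whose pattern over the 6 libraries was most like that of a member were named for Vhl and Epas1, the members with the largest rise and fall before any regional median was removed. For Vhl these were Minos1, Carnmt1 and Prpsap2, with Pearson r of 0.999, 0.998 and 0.998 on the log2 CPM scale. For Epas1 they were Sin3b, Fzd5 and Prdm10, with r of 0.999, 0.996 and 0.993. The 6 points share the division into 2 groups, so high values were common: of 8160 genes compared, 1941 had r over 0.9 with Vhl and 806 with Epas1. Sin3b had 90.7, 81.8 and 82.3 CPM in Bcat1-KO, against 106, 97.3 and 101 CPM in control, a smaller difference than that of Epas1.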

How the data were processed

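Libraries were prepared with a stranded poly(A) kit, per the labels' protocols. The submitters' processing notes name STAR 2.5.3a, featureCounts and build mm10, and no annotation release is stated in the sources used here. The deposited counts are raw reads per gene on either or both strands, per the file headers, and the reverse-strand counts, 96.4% to 96.5% of the stranded reads, were used. The deposited TPM values, named by the authors for the reverse strand, served to compare genes.

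The expression filter of edgeR 4.0.16 kept 14020 of 49585 genes, which were scaled by TMM and compared with the quasi-likelihood test, with no covariate and Benjamini-Hochberg adjustment at 0.05. An SE is the unshrunken log2 fold change over the root of its F statistic. Alternatives were RLE and upper-quartile scaling, no filter, DESeq2 1.42.0, limma 3.58.1 on log2(TPM + 1), unstranded counts and a 1.5-fold threshold. Further ones were a replicate block, removal of the local median, and leaving out each library (R 4.3.3). The local median was taken over 51 tested genes in chromosome order, the gene itself among them. The test was checked on simulated data in which few genes changed and all had the same dispersion. That check does not cover a comparison in which most genes pass, as here.

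Members and lists were chosen with earlier results of these data known. Named were all members, the 4 list genes with the largest change past the threshold whose mean log2 CPM reached 2, and the 3 genes most like Vhl and Epas1 with a mean of 4 or more. Gene types came from GENCODE M21 by stable ID (49326 IDs found). Libraries held 29543157 to 37800648 counts, so 3 counts are 0.0794 to 0.102 CPM. Replicates differed beyond counting noise (chi-square per gene 3.91 to 32.5), so none was counted as a duplicate.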

Additional observations from a re-analysis of the deposited data

Results flagged for a closer look

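Reads on the strand opposite to Hif1a, which entered only the alternative that counts without regard to strand, numbered 28 over the Bcat1-KO libraries (9, 12 and 7) and 13 over the control libraries (4, 4 and 5). Each knockout library was above each control library, although these reads are few beside the 18611 and 13826 reads on the strand of the gene. They are raw reads, not scaled for depth. The Bcat1-KO libraries were all deeper, with 35608024 to 37800648 counts, against 29543157 to 33550412 in control. The difference was not tested.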

How the results depend on the processing

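6 of the 9 members passed the test, and their directions held under all 15 alternatives except for Hif1a with the local median removed. The test against a 1.5-fold threshold left 1564 higher and 1481 lower genes in all, 0 and 1 of the members, 2 and 1 of the regulators, 1 and 8 of the HIF targets and 3 and 1 of the metabolism genes, and Vhl (0.59), Egln1 (0.45), Egln3 (0.43), Hif1a (0.18) and Arnt (-0.49) did not pass, since the test asks for a larger change. With the local median of 51 genes removed, 2 members and 5 regulators were higher, Egln3 (0.20) did not pass, and Hif1a (-0.15), Egln2 (0.0757), Hif1an (-0.0031) and Cited2 (-0.0483) changed sign; the cause was not tested. Without a filter Hif1a (0.18) did not pass. Egln2 passed with RLE (-0.17) and upper-quartile (-0.17) scaling. Cited2, near 0, changed sign with RLE scaling (-0.012), upper-quartile scaling (-0.0088), no filter (-0.0070) and DESeq2 (-0.012). Leaving out 1 library at a time gave 0.16 to 0.19 for Hif1a, -0.0498 to 0.0594 for Cited2, -0.0521 to 0.0875 for Hif1an and -0.22 to -0.15 for Egln2. With the replicate number as a block, Egln1 had a log2 fold change of 0.45 and Vhl 0.59, 4448 genes were higher and 4214 lower, and no member's call changed. Same-numbered libraries did not all deviate together (correlations -0.04, -0.11 and 0.25 for replicates 1, 2 and 3), and Bcat1-KO replicate 1 deviated most like control replicate 2, so the numbers were not taken to pair them. Depth limits Epas1 most, with 90 to 221 counts a library, and intervals cover the spread of these libraries.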
